A study of Mus musculus with 2 samples.

Results

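The miR-29 family was measured by 3 of the 420 miRNA probes of the assay, rno-miR-29a, rno-miR-29b and rno-miR-29c, chosen by name as every probe for an arm of miR-29a, miR-29b or miR-29c. The samples were extracellular vesicles (EVs), membrane particles shed into the medium, from cultured cortical astrocytes of mice at postnatal day 1. The astrocytes of both groups carried GFAP-EGFP, a reporter transgene in which the promoter of GFAP, a gene of astrocytes, drives a green fluorescent protein. The IL-1β group received interleukin-1β, an inflammatory cytokine, at 200 ng per ml, and its EVs were collected after 2 h. The control group had no treatment, and its EVs were those released over 24 h, so that treatment and collection time cannot be told apart. Each group held 1 sample, which per the labels' protocols came from 8 to 10 pooled flasks of cells at passage 3 to 10, with 98% of cells positive for GFAP. No test across replicates was therefore possible. All intervals below are 95% intervals for counting error only, and each ratio compares these 2 preparations.

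A miRNA binds mRNAs mainly through its seed, bases 2 to 8 from its 5′ end, and lowers their translation and stability. The miR-29 miRNAs are known for repressing collagens and other matrix proteins and the de novo DNA methyltransferases. In mouse brain they are counted among the miRNAs rich in astrocytes. In human cells, the 3′ end of miR-29b carries a signal that directs it to the nucleus.

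The mature mouse sequences from RefSeq (GRCm38.p6) are shown because the family is defined by the seed, here in capitals, which all 3 share.
miR-29a-3p: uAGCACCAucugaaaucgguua
miR-29b-3p: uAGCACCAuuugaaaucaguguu
miR-29c-3p: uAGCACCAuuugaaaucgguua

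Among 1679 distinct mature miRNAs in that table, these 3 were the ones with this seed. Counted from the 5′ end, miR-29a and miR-29c differed at 1 of 22 positions (C10U, the miR-29a base first). Between miR-29c and miR-29b, 3 of the 22 shared positions differed (G18A, U21G and A22U, the miR-29c base first), and miR-29b was 1 base longer. The share of a probe's count that came from another member was not tested. Probe sequences were not used here, and the probes were designed for rat miRNAs.

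The miRNAs come from 4 mouse genes in 2 pairs. On chromosome 6, minus strand, Mir29a (chr6:31062660-31062747) and Mir29b-1 (chr6:31063023-31063093) were 275 bases apart. On chromosome 1, plus strand, Mir29b-2 (chr1:195037040-195037120) and Mir29c (chr1:195037547-195037634) were 426 bases apart, both within the span of the lncRNA gene A330023F24Rik. The hairpins of the miR-29b genes are given because both release the same mature miR-29b-3p, in capitals, so that its count cannot be divided between them.
Mir29b-1: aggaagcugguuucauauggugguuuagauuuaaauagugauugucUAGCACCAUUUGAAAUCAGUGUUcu
Mir29b-2: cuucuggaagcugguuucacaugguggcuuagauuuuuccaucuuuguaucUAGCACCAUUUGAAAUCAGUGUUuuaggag

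The 420 miRNA probes summed to 13514 counts in IL-1β EVs, against 16812 in control EVs. The background threshold of a sample was set from its 8 negative-control probes, at their mean + 2 SD, which came to 9.67 counts for IL-1β EVs and 6.41 counts for control EVs. The positive controls, RNAs added in fixed amounts, were 1.51-fold higher in the IL-1β sample. Probes for 4 mRNAs summed to 39568 counts in IL-1β EVs, against 1175 in control EVs, and their part in the miR-29 values was not tested. Markers of other cell types were mostly at background. Of 7 neuron probes, 1 passed the threshold in IL-1β EVs, against 2 in control EVs (summed counts 30 and 79), with all but miR-132 and, in the control, miR-134 below it, and miR-134 at 0 counts in IL-1β EVs. Of 4 microglia and leukocyte probes it was 1 and 2 (23 and 26 counts), of 3 oligodendrocyte probes 1 and 2 (85 and 113 counts), mostly miR-32, and of 2 erythroid probes 0 and 0 (8 and 7 counts). The endothelial miR-126 had 7 counts in IL-1β EVs, against 10 in control EVs, and passed the threshold in the control only. Mural and fibroblast miRNAs were present, with 4 of 5 probes above background in each sample and 843 counts in IL-1β EVs, against 1465 in control EVs.

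All 3 miR-29 probes were above background in both samples, and miR-29a, the member with the most counts, made up most of the family. It had 203 counts (176 to 233) in IL-1β EVs, against 184 counts (158 to 213) in control EVs. By count it ranked 17th of the 420 probes in the IL-1β sample and 21st in the control. The miR-29b probe had 40 counts in IL-1β EVs (28.6 to 54.5, rank 66), against 23 in control EVs (14.6 to 34.5, rank 96). The miR-29c probe had 38 counts in IL-1β EVs (26.9 to 52.2, rank 69), against 34 in control EVs (23.5 to 47.5, rank 74). Each raw count was thus higher in the IL-1β sample, with intervals that overlapped between the samples for every member.

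**Figure D1:**
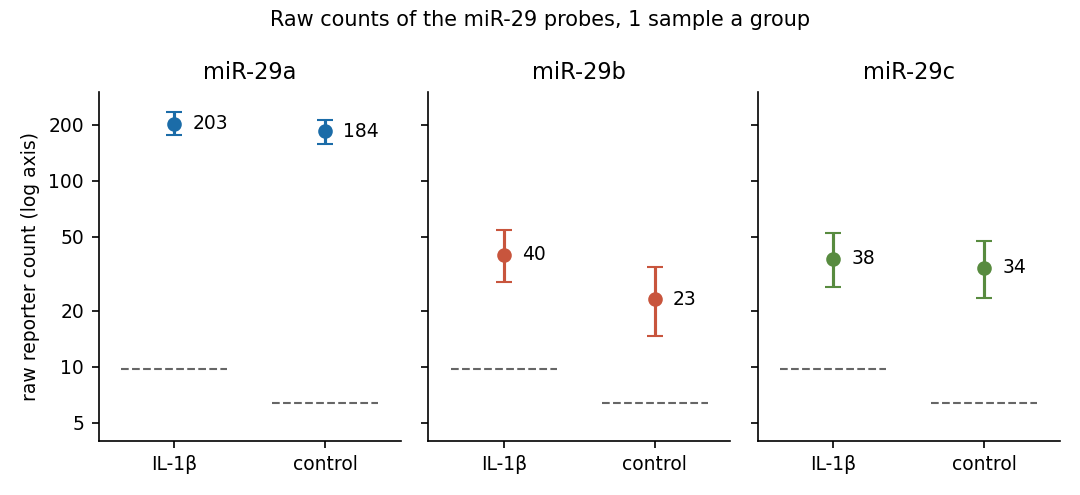
Raw reporter counts (log axis) of the miR-29a, miR-29b and miR-29c probes in the IL-1β sample and the control sample, with exact 95% Poisson intervals as bars and the background threshold of each sample as a dashed line. All points lie above the thresholds of 9.67 and 6.41 counts, and miR-29a stands well above the other members in both samples.

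The standing of the lower members above background was less firm than the threshold alone shows. Of the 420 probes, 69 carry a number that no mouse miRNA gene of RefSeq has. Their counts may give a further view of background in mouse material, but whether mouse RNA holds targets for them was not tested. Of the 69, 40 passed the threshold in both samples, as did 99 of the other 351. At least as many counts as miR-29b were held by 15 of the 69 in the IL-1β sample, against 24 in the control sample. For miR-29c the numbers were 16 and 15, and for miR-29a 3 and 2.

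Within each sample the order of the lower members was not resolved. In IL-1β EVs the count of miR-29b was 1.05 times that of miR-29c (0.658 to 1.69), and in control EVs 0.676 times (0.380 to 1.18). Counts of different probes also depend on how well each probe captures its target, so these are orders of counts and not of molecules.

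Counts were compared after scaling by a geometric mean over the 100 strongest miRNA probes, ranked on their average over both samples, which divides the raw ratios of IL-1β over control by 0.875. On this scale miR-29a had a ratio of 1.26 (1.03 to 1.55), miR-29b of 1.99 (1.16 to 3.48) and miR-29c of 1.28 (0.783 to 2.09). The summed count of the family was 281 in IL-1β EVs, against 241 in control EVs, a ratio of 1.33 (1.12 to 1.59). Its share of all miRNA counts was 2.08% (1.85 to 2.33) for IL-1β EVs, against 1.43% (1.26 to 1.62) for control EVs. With a rule of at least 2-fold and an interval that excludes 1, 0 of the 3 members were called in either direction, where 15% of the 160 miRNA probes that had a value were. Higher calls made up 5.62% of these probes, and miR-29b lay just short of the limit of 2. At 1.5-fold, miR-29b was called higher, as were 11.9% of the 160 probes.

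By point estimate, the members' ratios stood close to those of the other probes, except that of miR-29b. All 3 were above 1, as were 68.3% of the 139 probes above background in both samples, whose median log2 ratio was 0.27. The family's median log2 ratio was 0.35. The median ratio was 1.30 for the 40 of the 139 probes with no mouse number, and 1.14 for the other 99. Relative to the median of the 139 probes, the log2 ratio was 0.06 for miR-29a, 0.08 for miR-29c and 0.72 for miR-29b. The counting interval of the miR-29b ratio, 1.16 to 3.48, included the median ratio of the 139 probes, 1.21. Ordered from the highest ratio, miR-29b was 9th of the 139, miR-29c 58th and miR-29a 60th. An interval wholly above 1 was seen for 2 of the 3 members, miR-29a and miR-29b, and for 20.1% of the 139 probes.

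The direction of miR-29a, miR-29c and the family sum rested on the scaling. With no scaling their ratios were 1.10 (0.899 to 1.35) and 1.12 (0.685 to 1.83). With the positive controls they turned to 0.732 (0.596 to 0.898) and 0.741 (0.454 to 1.21), so that the interval of miR-29a then excluded 1 on the lower side. With the probes that have no mouse number they were 0.987 (0.804 to 1.21) and 1.00 (0.613 to 1.64). The summed ratio was 1.17 (0.978 to 1.39) with no scaling, 1.10 (0.925 to 1.32) with the median ratio and 1.04 (0.875 to 1.24) with the probes that have no mouse number. With the positive controls it was 0.773 (0.649 to 0.923), an interval below 1. The ratio of miR-29b was above 1 in all 7 other scalings of the raw counts, between 1.15 (0.674 to 2.02) with the positive controls and 2.17 (1.27 to 3.79) with the 50 highest probes. Its interval included 1 with the positive controls, with the median ratio and with the probes that have no mouse number.

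**Figure D2:**
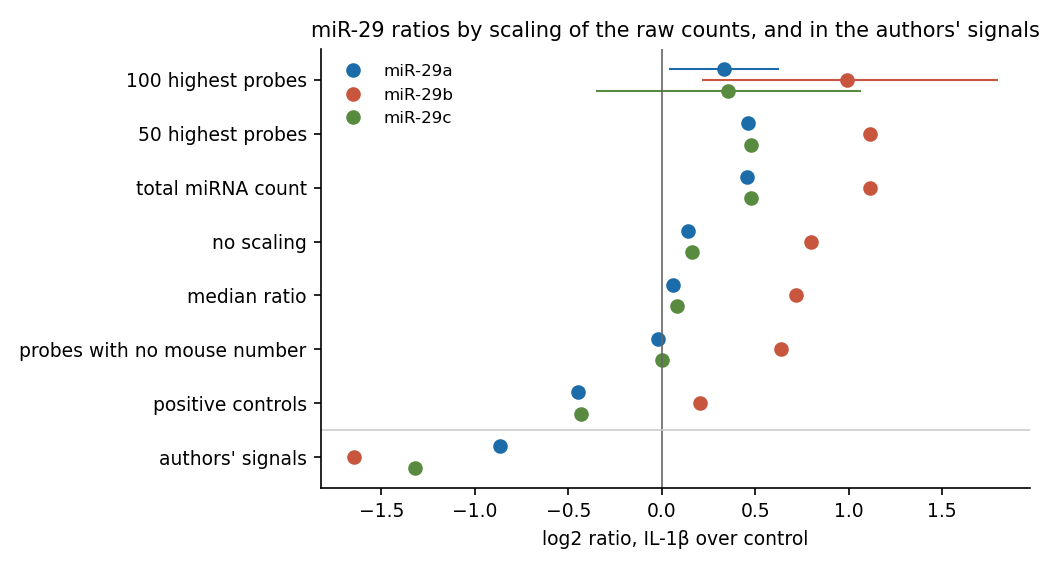
Log2 ratio of IL-1β over control for each miR-29 member (x axis) under 7 scalings of the raw counts, and in the authors' deposited signals below the grey line. Horizontal bars on the top row are 95% counting intervals. The miR-29b point is right of 0 in every raw scaling shown. With positive controls miR-29a and miR-29c cross to the left, and with the probes that have no mouse number they lie barely left of 0. All 3 lie left of 0 in the authors' signals.

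The make-up of the family inside each sample does not depend on any scaling. The count of miR-29b was 0.197 times that of miR-29a in IL-1β EVs (0.137 to 0.278), against 0.125 times in control EVs (0.0773 to 0.193). The ratio of these ratios was 1.58, with an exact conditional interval of 0.882 to 2.87 that includes 1. For miR-29c over miR-29a it was 0.187 (0.129 to 0.266) in IL-1β EVs, against 0.185 (0.124 to 0.268) in control EVs, a ratio of 1.01 (0.593 to 1.73). As a share of the family's counts, miR-29b made up 14.2% (10.4 to 18.9) in IL-1β EVs, against 9.54% (6.15 to 14.0) in control EVs. At these counts a different change of miR-29b and miR-29a was not detectable, and a difference of up to 2.87-fold lies within the interval.

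The authors' deposited table of normalized signals gave the opposite direction for all members. In the authors' deposited table, miR-29a had a signal of 1430 in IL-1β EVs, against 2602 in control EVs, a ratio of 0.550. The same deposited table gave miR-29b a signal of 303 in IL-1β EVs, against 949 in control EVs, a ratio of 0.319. For miR-29c it gave 138 in IL-1β EVs, against 343.5 in control EVs, a ratio of 0.401. All members were lower in IL-1β EVs in the authors' deposited table, as were 62.2% of its 119 probes with both signals. There 2 of the 3, miR-29b and miR-29c, were at least 2-fold lower, a size that 8.4% of the 119 probes reached. From the lowest ratio, miR-29b was 1st, miR-29c 6th and miR-29a 16th of the 119 in the authors' deposited table.

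No other miRNA that could be compared stood as far above its ratio in the authors' deposited table, by raw counts, as miR-29b and miR-29c. Over the 101 probes with a ratio in both sources, 5 of them bounds on the raw side, the raw log2 ratio minus the log2 ratio from the authors' deposited table had a median of 0.31. It was 2.64 for miR-29b, the highest of the 101, 1.67 for miR-29c, the next, and 1.197 for miR-29a, the 10th. In the other direction, the gap was larger in size for miR-99b (-3.40) and miR-100 (-2.70) than for miR-29b. Further probes, among them miR-1224 (-2.61) and miR-132 (-2.17), had a larger gap in size than miR-29c, so wide disagreement of the sources was not particular to miR-29. A raw ratio above 1 with a ratio below 1 in the authors' deposited table was found for 3 of 3 members and for 37.6% of the 101 probes.

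**Figure D3:**
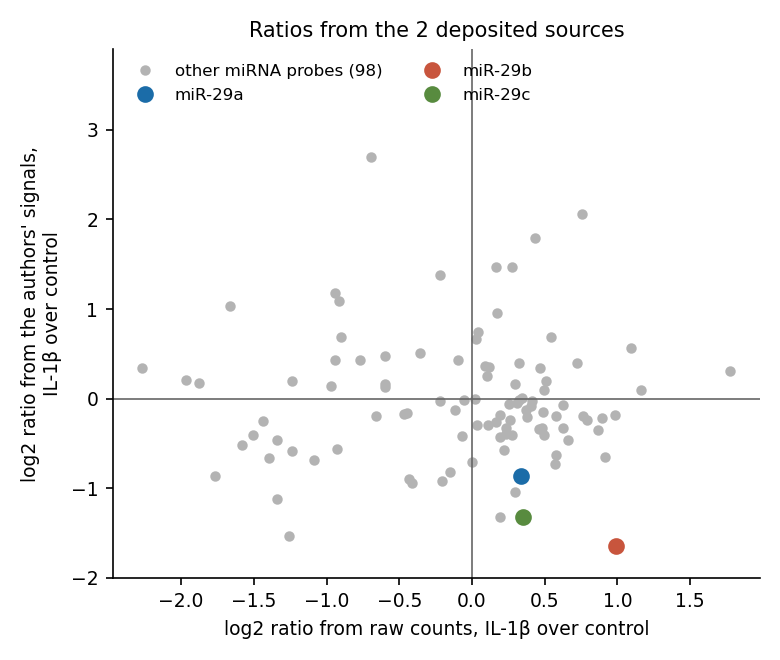
Log2 ratio of IL-1β over control from the raw counts (x axis) against that from the authors' deposited signals (y axis) for 101 miRNA probes, each point 1 probe. The miR-29 members lie in the lower right part, above 0 from the counts and below 0 from the signals, with miR-29b at 0.99 and -1.65.

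The gap lay mostly in the control values. In the control sample, the signal of the authors' deposited table per raw count was 41.3 for miR-29b, 14.1 for miR-29a and 10.1 for miR-29c, against a median of 2.35 over all its probes. These ranked 6th, 15th and 20th. In the IL-1β sample it was 7.57, 7.05 and 3.62 in the same order, against a median of 4.19 over 119 probes, ranks 39, 43 and 66. Relative to the other listed probes, the members' deposited signals thus stood further above their raw counts in the control than in the IL-1β sample. By signal, the authors' deposited table placed miR-29a 9th in IL-1β EVs, against 3rd in control EVs.

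The make-up of the family also differed between the sources. In the authors' deposited table, the miR-29b signal was 0.212 times that of miR-29a in IL-1β EVs, against 0.365 times in control EVs, a ratio of 0.580. That is below the lower bound of 0.882 from the raw counts. For miR-29c over miR-29a the authors' deposited table gave 0.0962 in IL-1β EVs, against 0.132 in control EVs, a ratio of 0.729, inside the counting interval. The IL-1β value of miR-29b over miR-29a was alike in both sources, 0.212 and 0.197, and the control values were apart, 0.365 and 0.125. For miR-29c over miR-29a it was the reverse. Its control value of 0.132 lay inside the raw interval of 0.124 to 0.268, and its IL-1β value of 0.0962 lay below that of 0.129 to 0.266. The highest signal (3823) and the median signal (94) of the authors' deposited table were the same in both samples.

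**Figure D4:**
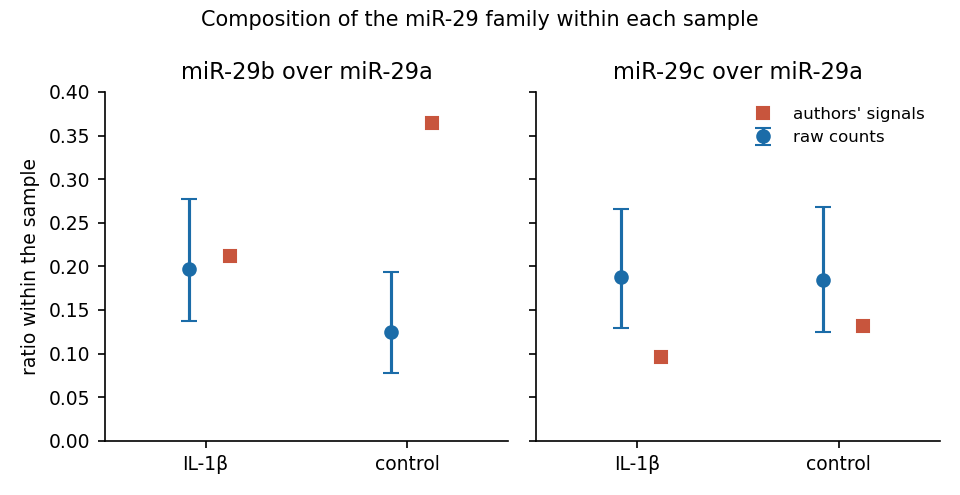
Ratio of miR-29b to miR-29a (left) and of miR-29c to miR-29a (right) within each sample, from raw counts (circles, bars are exact 95% counting intervals) and from the authors' deposited signals (squares, no interval). The squares and circles are close for miR-29b in IL-1β EVs, at 0.212 and 0.197, and far apart in control EVs, at 0.365 and 0.125. For miR-29c the square lies below the bar in IL-1β EVs, at 0.0962, and within it in control EVs, at 0.132.

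The probes with counts most like those of the members, by distance between log2 counts over the 2 samples, were led by miR-598-5p for miR-29a, with 195 counts in IL-1β EVs, against 189 in control EVs. For miR-29b the nearest was miR-3569, with 35 counts in IL-1β EVs, against 24 in control EVs, and for miR-29c it was miR-448, with 41 counts in IL-1β EVs, against 36 in control EVs. The next nearest were miR-628 and miR-532-5p for miR-29a, miR-3592 and miR-3581 for miR-29b, and miR-3585-5p and miR-365 for miR-29c. Of these 9 probes, miR-628, miR-3592, miR-3581 and miR-3585-5p have no mouse number.

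Other miRNAs counted as rich in astrocytes mostly had ratios below 1 when scaled on the 100 strongest probes, while those of the miR-29 members were above 1. Of 10 other astrocyte probes, 8 had a ratio, 6 of them below 1 and 2 above. The median log2 ratio of the 8 was -1.03, against 0.35 for miR-29 and 0.27 for the 139 probes. Without a ratio were miR-9, with 0 counts in IL-1β EVs, against 1 in control EVs, and miR-125b-3p, with 3 against 1. Both were below the threshold in each sample. The 40 of the 139 with no mouse number had a median ratio of 1.30, close to miR-29a at 1.26 and miR-29c at 1.28. Of the 8, 4 were called at least 2-fold lower, as were 9.38% of the 160 probes, and 0 higher. Those with the most counts were miR-125b-5p (ratio 1.02, 0.948 to 1.09), miR-181a (0.352, 0.304 to 0.407), miR-23a (0.510, 0.418 to 0.620) and miR-27a (0.471, 0.385 to 0.574). The miR-24 probe, with 262 counts in IL-1β EVs, against 210 in control EVs, had a ratio of 1.43 (1.18 to 1.72). On this scaling miR-29a, miR-29b and miR-24 were the 3 astrocyte miRNAs whose interval lay above 1, among the 3 members and the 8. Such an interval was also seen for 20.1% of the 139 probes, so it was not particular to these miRNAs. In the authors' deposited table the order was turned: 5 of the same 8 probes had ratios above 1 and 3 below. Their median log2 ratio was 0.17, against -1.32 for the miR-29 members. Of the 119 probes with both signals, 62.2% had a ratio below 1, with a median ratio, not in log2, of 0.883. Of the 4 called lower by raw counts, 0 were 2-fold lower in the authors' deposited table, where miR-100 had a ratio of 2.05, miR-181a of 0.753, miR-27a of 0.620 and miR-27b of 0.840.

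Of 11 probes for other miRNAs studied in tissue fibrosis, where miR-29 is known as a repressor of collagens, 5 had a ratio, 4 of them below 1. Of the 139 probes above background in both samples, 68.3% had a ratio above 1. The median log2 ratio of the 5 was -0.66, against 0.27 for the 139. Of the 5, 2 were called at least 2-fold lower, miR-30b-5p and miR-30c, as were 9.38% of the 160 probes with a value. The miR-30b-5p ratio of 0.423 (0.183 to 0.902) rested on 10 counts in IL-1β EVs, against 27 in control EVs. Those 10 counts lay barely above the IL-1β threshold of 9.67. Called higher were 0 of the 5, against 5.62% of the 160. The miR-30c probe had a ratio of 0.294 (0.213 to 0.399). The miR-199a-5p probe stood at 0.633 (0.481 to 0.828), miR-21, which promotes fibrosis, at 0.740 (0.499 to 1.09), and miR-214 at 1.21 (0.916 to 1.60). In the authors' deposited table, 2 of the same 5 probes were above 1 and 3 below, with a median log2 ratio of -0.19. That was near the whole of the authors' deposited table, where 62.2% of the 119 probes with both signals were below 1. The median ratio there, not in log2, was 0.883. There miR-30b-5p had a ratio of 1.14, opposite to the raw counts, miR-30c of 0.550 and miR-214 of 2.76.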

How the data were processed

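Per the file headers, the deposited raw files hold nCounter reporter counts of a rat miRNA code set, 1 lane per sample, with no normalization. This assay counts single colour-coded reporter probes bound to tagged small RNAs. The authors also deposited a table of normalized signals and of the ratio of IL-1β over control, with its normalization not given in the sources used here; ratios were recomputed from its signals. Counts were scaled as given above, with no background subtraction. Intervals were exact binomial (Clopper-Pearson) for shares and count ratios, exact Poisson for counts and exact conditional for ratios of ratios. Of the 53 probes that passed the threshold in 1 sample only, 21 were given a bound, with the threshold of the sample where they did not pass as its value there. The other 32 got no value, since that bound fell on the opposite side of 1. The interval code was tested on simulated data. Named miRNAs were the members, the 3 probes nearest each, and up to 4 list members with the highest mean count. miR-24 and miRNAs named beyond these were chosen after their values were seen. The members, lists and settings were chosen with earlier results of these data known. A list name with no exact probe was matched to its arms. Python 3.11.15, scipy 1.17.1 and matplotlib 3.10.9 were used.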

Additional observations from a re-analysis of the deposited data

How the results depend on the processing

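Over 15 alternatives, 64 of 85 recomputed values stayed within the counting interval, or at the same number of called members, and 21 did not. Thresholds at mean + 3 SD, at the highest negative control or none, and a fold minimum of 4, changed nothing. This was fixed in advance, since the ratios do not use the threshold, all members lay well above it, and none was near 4-fold. The 64 include these fixed values, so they overstate how far the results held. With positive controls the ratios were 0.732 for miR-29a, 1.15 for miR-29b, 0.741 for miR-29c and 0.773 for the sum, and the median log2 ratio was -0.43. With probes that have no mouse number, miR-29a was at 0.987 and the sum at 1.04, and the median log2 ratio fell just below 0. With the median ratio the sum was at 1.10. The number of members called was 1, miR-29b, with total counts (ratio 2.16), the 50 highest probes (2.17), the members left out of the scaling (2.01), the negative-control mean subtracted (2.13) and a fold minimum of 1.5. The authors' deposited table gave 0.550, 0.319 and 0.401 for miR-29a, miR-29b and miR-29c, 0.480 for the sum, a median log2 ratio of -1.32, 2 members at least 2-fold apart (with no interval), 0.580 for miR-29b over miR-29a, 0.729 for miR-29c over miR-29a and -8.19 percentage points for the share of miR-29b (IL-1β minus control), against 4.69 from the counts. The cause was not tested. Quantile normalization of the raw counts, added after seeing the data, gave 1.22, 1.94 and 1.13 for miR-29a, miR-29b and miR-29c. No paired analysis was possible because each group held 1 sample. With 23 to 40 counts, miR-29b and miR-29c carry wide intervals.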
